A study of Mus musculus with 2 samples.

Results

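The TREM receptors and the adaptors through which they signal were examined as a set of 7 genes, chosen by name: the receptors Trem1, Trem2, Trem3, Treml2 and Treml4, and the adaptors Tyrobp (DAP12) and Hcst (DAP10). They are 7 of 55536 annotated genes, with 23 of 141767 annotated transcripts, and all 7 were matched in the gene-level table and in both transcript tables. RNA came from macrophages that had been grown from bone marrow (BMDM) of C57BL/6J mice, with no engineered allele named. The cells met Lipid A, the membrane-anchored core of bacterial endotoxin, at 100 ng/ml for 12 h, were then kept without it for 12 h, and met it again at 100 ng/ml for 50 min. Ribosomal RNA was depleted, and the nucleoplasmic fraction, which the labels also call nuclear, was sequenced as total RNA in 1 group of 2 libraries. The labels call these biological replicates 1 and 2, list the same donor for both, name no separate animals or cultures, and leave age and sex uncollected. Replicate 2 was made from 1 µg of RNA and replicate 1 from 500 ng, so replicate and RNA input cannot be told apart. No unstimulated library was analysed here. All values are levels in these nuclei, and none is a response to Lipid A.

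TREM receptors are single-pass surface proteins with an immunoglobulin-like domain, and Trem1, Trem2 and Trem3 have short tails that carry no signalling motif. A lysine inside the membrane pairs with an aspartate in the membrane stretch of Tyrobp or Hcst. Tyrobp carries an ITAM, a pair of spaced tyrosines that Src-family kinases phosphorylate and that the kinase Syk then binds. Hcst carries instead a YxNM motif that recruits phosphoinositide 3-kinase and Grb2. In macrophages and microglia Trem2 is known as a sensor of lipids and lipoproteins, while Trem1 is best known as an amplifier of inflammation in neutrophils and monocytes.

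The libraries held 22772087 counts in replicate 2 and 20612114 in replicate 1. At this depth a count of 0 allows up to 3 counts, which is 0.132 and 0.146 CPM (counts scaled by library depth), and this limit covers counting error only. The macrophage label was met by its markers: all 10 macrophage genes exceeded the median of protein-coding genes (12128 with at least 10 counts in all), and 9 exceeded the 90th percentile, with summed levels of 3071 TPM in replicate 2 and 2803 TPM in replicate 1. TPM is a level per transcript length, scaled to the same total in each table, and the median and the 90th percentile were 3.59 and 28.7 TPM. None of the 8 neutrophil genes reached the median (summed level 2.51 and 2.28 TPM in replicates 2 and 1, with Ly6g at 0). All 5 natural killer cell genes were listed at 0 in the gene-level table. The index-based transcript table did not list all of them at 0, with Eomes highest at 23.9 counts in replicate 2 and 78.1 in replicate 1. Of 5 platelet genes, Pf4 averaged 17.9 TPM and the others averaged 0.67 TPM or less. These are bulk nuclei, in which fewer cells of a type and less RNA per cell cannot be told apart.

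The set ranged from abundant to nearly absent genes. Tyrobp and Trem2 lay above the 90th percentile of protein-coding genes, Treml2 lay above the median, Hcst lay below it, and Treml4, Trem1 and Trem3 had fewer than 10 counts in each library. By mean TPM the order was Tyrobp, Trem2, Treml2, Hcst, Treml4, Trem1 and Trem3.

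**Figure D1:**
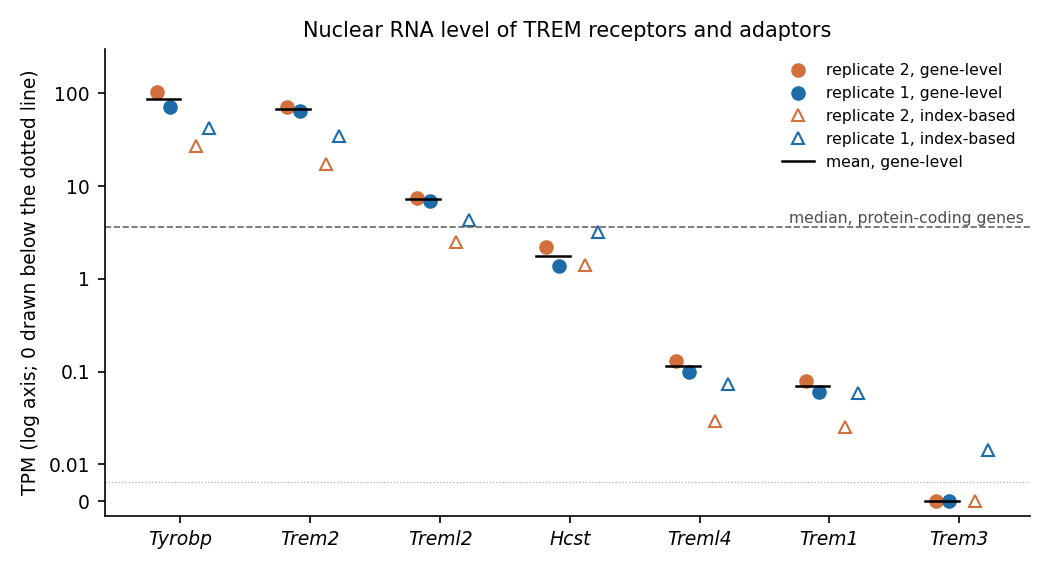
TPM of each gene (log axis) in replicate 2 and replicate 1, from the gene-level table (filled circles, with their mean as a bar) and from the index-based transcript table (open triangles). Tyrobp and Trem2 sit between 64.62 and 103.26 TPM in the gene-level table, Treml2 near 7, and Treml4, Trem1 and Trem3 at or below 0.13; the dashed line is the median of protein-coding genes, 3.59 TPM.

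Of the adaptors, Tyrobp was the more abundant by far. Tyrobp, which passes receptor signals to Syk through its ITAM, lies on chromosome 7 (mm10, 30413760 to 30417585, plus strand). It had 1394 counts in replicate 2 and 883 in replicate 1, or 103.26 and 72.23 TPM, and averaged 87.7 ± 21.9 TPM (SD, n = 2), percentile 97.0 of protein-coding genes. Replicate 2 was the higher library, and the authors' deposited intervals of TPM, 94.9 to 106 in replicate 2 and 65.5 to 74.8 in replicate 1, did not overlap. Hcst, which couples receptors to phosphoinositide 3-kinase, lies next to it on the minus strand (30417712 to 30419854), and the ends of the genes face each other with 126 bases between them. Hcst had 17 counts in replicate 2 and 10 in replicate 1, or 2.21 and 1.37 TPM, with a mean of 1.79 ± 0.594 TPM (SD, n = 2). The authors' intervals of TPM overlapped, at 1.44 to 3.69 in replicate 2 and 0.892 to 2.83 in replicate 1. In TPM, Tyrobp was 46.7 times Hcst in replicate 2 and 52.7 times in replicate 1. Strand use in counting is not stated in any source used here, and whether reads from Tyrobp entered the Hcst counts was not tested.

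The parts of both adaptors that define their roles are encoded in the following stretches, read from the GENCODE M21 transcripts Tyrobp-201 and Hcst-201. They are shown because the adaptors differ in them and because 1 transcript of Tyrobp lacks the ITAM. The membrane stretch is the most hydrophobic window of 21 codons past the signal peptide region, and its capitals mark the codon of a charged residue, which is an aspartate in both adaptors. In the ITAM, capitals mark the tyrosine codons, and in the YxNM stretch they mark the 4 codons of the motif. The positions are chr7:30414542-30414604 (plus strand) and chr7:30415670-30417382 (plus strand, across 1 intron) for Tyrobp, and chr7:30418119-30418181 and chr7:30417809-30417844 (minus strand) for Hcst.
Tyrobp membrane stretch: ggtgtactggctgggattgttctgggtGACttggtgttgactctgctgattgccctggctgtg
Tyrobp ITAM: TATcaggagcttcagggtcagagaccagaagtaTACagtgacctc
Hcst membrane stretch: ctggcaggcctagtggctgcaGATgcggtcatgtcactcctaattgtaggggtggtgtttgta
Hcst YxNM: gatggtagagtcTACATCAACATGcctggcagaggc

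Nearly all Tyrobp RNA was assigned to transcripts that encode the ITAM. Tyrobp-202 held 63.5% ± 4.86 of the gene's transcript TPM (SD, n = 2), with 60.0% in replicate 2 and 66.9% in replicate 1, and Tyrobp-201 held 35.8% ± 4.66. Both carry the ITAM printed above and have the same internal exons; Tyrobp-202 differs by 33 bases at its ends, and its coding start is annotated as not found. The division between them therefore rests on few bases, and in the index-based table Tyrobp-202 held 84.6% ± 2.13. Tyrobp-203, annotated for nonsense-mediated decay, carries an extra exon of 67 bases (30415008 to 30415074), and its annotated reading frame holds no ITAM. It held 0.833% of Tyrobp TPM in replicate 2 and 0.554% in replicate 1, on 11.4 and 4.72 expected counts.

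Hcst transcripts rested on the few counts above. Hcst-201 held 8.35 and 7.0 expected counts in replicates 2 and 1, Hcst-203, which also codes, held 4.65 and 0.0, and Hcst-202, annotated as a retained intron with 280 bases that neither coding transcript has, held 4.0 and 3.0. The shares of Hcst-202, 22.2% and 31.4% of TPM, each come from those 4.0 and 3.0 counts. The index-based table assigned more reads to the gene, 54 in replicate 2 and 65 in replicate 1. That is 3.18 and 6.5 times the gene-level counts, against a median of 1.29 and 1.62 times over protein-coding genes, and Hcst stood at percentiles 93.1 and 95.7 of this ratio. The counts of Hcst therefore depend more on the table than those of most genes. In TPM its mean was 2.31 ± 1.25 in the index-based table and 1.79 ± 0.594 in the gene-level table (SD, n = 2), and in index-based TPM Tyrobp was 19.1 times Hcst in replicate 2 and 13.4 times in replicate 1.

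Among the receptors, Trem2 predominated. Trem2, a receptor for lipids and apolipoproteins, lies on chromosome 17 (48346401 to 48354147, plus strand). It had 2644 counts in replicate 2 and 2262 in replicate 1, or 70.85 and 64.62 TPM, and averaged 67.7 ± 4.41 TPM (SD, n = 2), percentile 96.0 of protein-coding genes. In gene-level TPM the libraries lay close together, and the authors' intervals of TPM were 66.0 to 72.2 in replicate 2 and 59.9 to 66.2 in replicate 1. In index-based TPM they lay further apart, at 17.4 in replicate 2 and 34.4 in replicate 1. Summed over the 5 receptors, levels came to 78.6 TPM in replicate 2 and 71.7 TPM in replicate 1, of which Trem2 took 90.2% in each library.

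Treml2, also called TLT-2, was the only other receptor above 1 TPM. It lies on chromosome 17 as well (48299498 to 48312533, plus strand) and had 855 counts in replicate 2 and 797 in replicate 1, or 7.51 and 6.89 TPM. Its mean of 7.2 ± 0.438 TPM (SD, n = 2) is percentile 65.7 of protein-coding genes. Trem2 was 9.43 times Treml2 in TPM in replicate 2 and 9.38 times in replicate 1, and the libraries did not overlap between these genes.

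Treml2 also differs from Trem2 in the membrane stretch through which TREM receptors reach their adaptors. The coding bases are printed here for both genes from GENCODE M21, with the codon of a charged residue in capitals, at chr17:48351777-48351839 for Trem2 and chr17:48309132-48309194 for Treml2 (both plus strand). Trem2 has 1 charged residue in the window, a lysine, and Treml2 has 0. The most hydrophobic windows of Trem1, Trem3 and both counted Treml4 transcripts, Treml4-201 and Treml4-203, each hold 1 lysine too.
Trem2 membrane stretch: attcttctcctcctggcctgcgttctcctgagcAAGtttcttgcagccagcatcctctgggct
Treml2 membrane stretch: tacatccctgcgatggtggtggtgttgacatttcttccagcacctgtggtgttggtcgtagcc

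The remaining receptors were at or near the limit of detection. Treml4, which in mouse binds dying cells and is known from splenic macrophages, had 7 counts in replicate 2 and 5 in replicate 1, or 0.13 and 0.10 TPM. The authors' intervals of TPM for Treml4, 0.192 to 0.751 and 0.183 to 0.78, lie above those values. Deposited intervals also missed the TPM of well-counted genes, such as Syk in replicate 1 (174.5 TPM, interval 166 to 171). The mismatch therefore does not measure how uncertain Treml4 is, and its level rests on those few counts. Trem1 had 5 counts in replicate 2 and 4 in replicate 1, or 0.08 and 0.06 TPM. A processed pseudogene, AC241601.2, lies on the other strand within an intron of Trem1 (48238211 to 48240641) and had 3 and 6 counts. It overlaps no annotated exon of Trem1, since the nearest ones end at 48237354 and start at 48241486. No source used here says whether strand was used in counting. Trem3, an activating receptor of mouse with a lysine in its membrane stretch, had 0 counts in both libraries, which allows up to 0.132 CPM in replicate 2 and 0.146 CPM in replicate 1. In the index-based table Trem3 had 0 counts in replicate 2 and 1 in replicate 1, and Trem1 had 11 and 14.

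Neighbours in the order were not all separated. The libraries of Tyrobp and Trem2 did not overlap, but the lowest Tyrobp value, 72.23 TPM, was close to the highest Trem2 value, 70.85 TPM, and the difference of their means was smaller than the SD of Tyrobp. Treml4 and Trem1 differed by 2 counts or fewer in each library, so their order cannot be read at this depth. The other steps, Trem2 over Treml2, Treml2 over Hcst and Hcst over Treml4, were each at least 3.4 times in TPM in both libraries. In the index-based table the order of the 7 genes was the same in mean TPM, while Treml2 exceeded Hcst by 1.75 times in replicate 2 and 1.36 times in replicate 1. Index-based TPM was lower for most protein-coding genes. The median ratio of index-based to gene-level TPM was 0.325 in replicate 2, against 0.696 in replicate 1. For Tyrobp the index-based values were 27.2 TPM in replicate 2 and 42.9 TPM in replicate 1, so in that unit replicate 2 was the lower library. With TMM scaling of the index-based counts its log2 ratio was 0.52 in favour of replicate 2. The same scaling gave Trem2, also lower in replicate 2 in index-based TPM, a log2 ratio of 0.24 in favour of replicate 2.

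Trem2 was assigned to 4 transcripts, of which the coding ones differ in whether the membrane stretch is read. Trem2-201, the form with the lysine-bearing stretch printed above, held 73.8% of transcript TPM in replicate 2 and 72.9% in replicate 1 (mean 73.4% ± 0.635, SD, n = 2). Trem2-202 held 19.5% in replicate 2 and 20.4% in replicate 1 (mean 19.9% ± 0.681). It uses an earlier splice site before exon 4 and so gains 55 bases (48351691 to 48351745). As 55 is not a multiple of 3, the frame shifts ahead of the membrane stretch. The annotated frame of Trem2-202 has 249 codons against 227 in Trem2-201. Its most hydrophobic window of 21 codons has a mean Kyte-Doolittle hydropathy of 0.61, against 2.37 in Trem2-201, and no window like the membrane stretch remains. The junction is printed from the transcript (chr17:48351180-48351757, plus strand, across 1 intron), with the bases that Trem2-201 lacks in capitals between the last 12 bases of the exon before and the first 12 of the shared part.
Trem2-202 junction: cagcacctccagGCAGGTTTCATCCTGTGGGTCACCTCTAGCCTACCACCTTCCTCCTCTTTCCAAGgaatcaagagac

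These shares were close between libraries, and whether protein is made from Trem2-202 was not measured. Trem2-202 rested on 408 expected counts in replicate 2 and 367 in replicate 1, against 1607 and 1361 for Trem2-201. The authors' deposited intervals of TPM for Trem2-202 were 10.6 to 16.1 and 10.5 to 15.1, well below those of Trem2-201 at 47.0 to 54.0 and 42.3 to 48.5. In the index-based table Trem2-202 held 18.6% ± 1.9 of TPM and Trem2-201 held 68.3% ± 0.669.

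Part of the Trem2 RNA was assigned to a form that keeps an intron. Trem2-203, annotated as a retained intron, keeps the first intron (1861 bases, 48346596 to 48348456) and runs 1874 bases past the end of the coding transcripts (48352274 to 48354147). It is 4784 bases long, of which 3735 are in neither coding transcript. Which of these bases held its counts was not examined, so the share of Trem2-203 does not measure intron retention alone. Trem2-203 held 23.4% of the gene's counts in replicate 2 and 23.3% in replicate 1, but per length only 5.57% and 5.37% of TPM. Over 5196 genes that have a retained-intron transcript and at least 100 counts in both libraries, the median share of such transcripts was 21.5% of TPM and 11.3% of counts. Trem2 thus stood low in TPM share, at percentile 13.1, and high in count share, at percentile 70.3. The index-based table assigned Trem2-203 more, 11.2% ± 1.01 of TPM and 39.6% ± 2.68 of counts. Trem2-204, a short noncoding form, held 0.80 TPM in replicate 2 and 0.82 TPM in replicate 1.

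**Figure D2:**
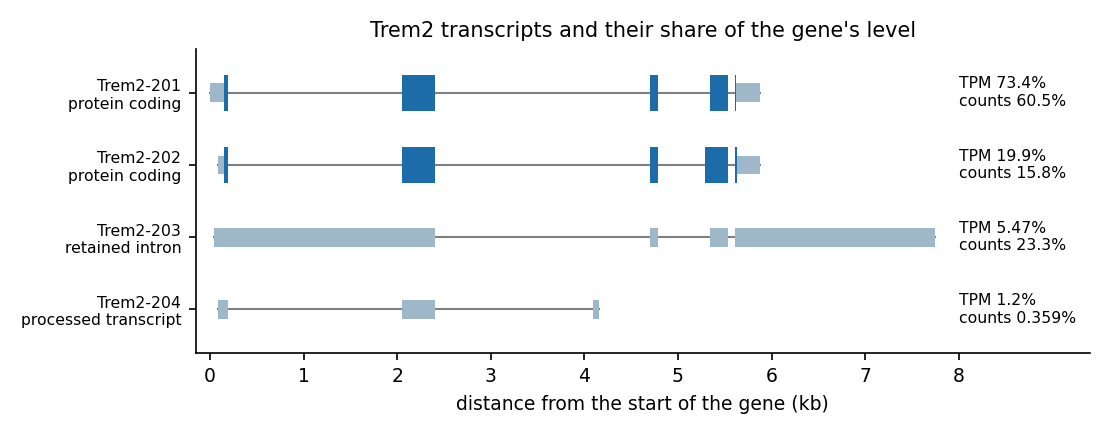
Exons of the 4 annotated Trem2 transcripts (boxes; dark and tall where coding) against distance from the start of the gene in kb, with each transcript's mean share of the gene's transcript TPM and counts over 2 libraries. The retained-intron form Trem2-203 takes 5.47% of TPM but 23.3% of counts, and the extra bases of Trem2-202 widen the exon before its last one.

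Treml2 was assigned mostly to 1 coding transcript. Treml2-201 held 77.8% of transcript TPM in replicate 2 and 86.2% in replicate 1 (mean 82.0% ± 5.96, SD, n = 2), and Treml2-202, which also codes and keeps the same membrane window, held 19.0% and 12.8%. Noncoding transcripts held 2.11% ± 1.54. The index-based table assigned noncoding Treml2 transcripts 24.9% in replicate 2 and 14.6% in replicate 1, so this division depended on the table. The counted transcripts of the rare receptors were Treml4-201, and in the index-based table also Treml4-203, with Trem1-202 in the alignment-based table and Trem1-201 in the index-based one; the single index-based count of Trem3 went to Trem3-201.

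The 5 receptors lie in 1 cluster on chromosome 17, in which levels differed widely between neighbouring genes. From left to right Trem1, Trem3 and Treml4 stood at or below 0.13 TPM in each library, Treml2 averaged 7.2 TPM, and Trem2 averaged 67.7 TPM. Between Treml2 and Trem2 lies B430306N03Rik, a gene of the same cluster, with 16.65 TPM in replicate 2 and 10.64 TPM in replicate 1. To the right of Trem2, with 5768 bases between them, Treml1, a receptor of platelets, had 0.81 TPM in replicate 2 and 1.91 TPM in replicate 1. Nfya, a subunit of the CCAAT-binding factor NF-Y, had 35.15 and 33.82 TPM, and Oard1, an ADP-ribose hydrolase, had 2.0 and 1.23 TPM. All 4 neighbours were tested between the libraries by the rule given below, and 0 were called, beside 6.65% of all genes tested. Nfya alone among the 4 lay above the 90th percentile of protein-coding genes. Treml6 and Trem5 had no match by symbol and are not analysed here.

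**Figure D3:**
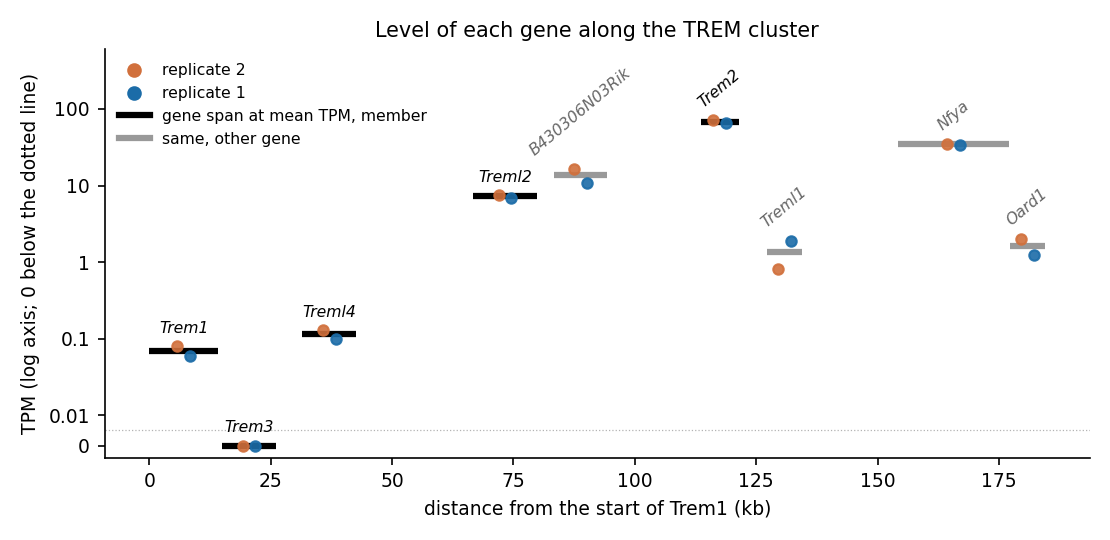
TPM of each gene (log axis) along the TREM cluster, against distance from the start of Trem1 in kb, in replicate 2 and replicate 1; bars span each gene at its mean TPM. Trem1, Trem3 and Treml4 lie at or below 0.13 TPM, and Trem2 is the highest gene of the cluster at 70.85 and 64.62 TPM.

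Since neighbours of 1 cluster stood so far apart, the start regions of the highest and a nearly absent receptor are shown side by side. RefSeq promoter windows (GRCm38.p6) were found for 4 of the 7 genes: Trem2, Trem1, Treml4 and Hcst. The 250 bases before the start of Trem2 (chr17:48346151-48346400, plus strand) and of Trem1 (chr17:48232489-48232738, plus strand) were searched on both strands for 3 motifs. These were GAGGAA, a core of sites of the myeloid factor PU.1, TGACTCA, the AP-1 site, and TATAAA, the TATA box. Matches are in capitals.
Trem2 promoter: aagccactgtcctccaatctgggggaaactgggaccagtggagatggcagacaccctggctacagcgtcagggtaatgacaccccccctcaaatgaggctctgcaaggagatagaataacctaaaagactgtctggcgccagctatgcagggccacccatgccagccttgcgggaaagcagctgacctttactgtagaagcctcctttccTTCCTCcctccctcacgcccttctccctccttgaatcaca
Trem1 promoter: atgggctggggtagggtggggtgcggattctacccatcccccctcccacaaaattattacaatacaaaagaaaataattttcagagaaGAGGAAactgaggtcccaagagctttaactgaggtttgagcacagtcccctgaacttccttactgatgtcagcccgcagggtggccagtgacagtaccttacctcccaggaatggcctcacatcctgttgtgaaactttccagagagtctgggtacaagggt

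Both windows hold 1 match of GAGGAA, in Trem2 on the opposite strand, and neither holds TGACTCA or TATAAA. The window of Treml4, also nearly absent, holds 2 matches of GAGGAA, and that of Hcst holds 0. Of 32851 RefSeq windows of the same length, 23.3% hold GAGGAA, 4.46% hold TGACTCA and 12.4% hold TATAAA. These matches do not separate the high gene from the low ones, and a match of letters is no measurement of binding.

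The libraries were compared gene by gene to see how far the members repeat. Counts were scaled by TMM and tested by an exact binomial test, adjusted (Benjamini-Hochberg) over all genes that had at least 10 counts in all, and a gene was called at an adjusted p under 0.05 with at least a 2-fold ratio. The p-values cover counting error only, and the test compares these libraries, not conditions. Of the 7 members, 5 were tested and 0 were called, beside 6.65% of 16140 genes tested (748 higher and 325 lower in replicate 2). Without the 2-fold rule, 2 of the 5, Tyrobp and Trem2, had an adjusted p under 0.05 in the exact binomial test (also 2 at an unadjusted p under 0.05), beside 38.7% of all genes tested, so the members' share is near the background. With edgeR's exact test at a preset dispersion of 0.04 or 0.01, 0 members were called, beside 196 and 741 of 16140 genes.

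Tyrobp differed most among the well-counted members. Its 1394 counts in replicate 2 and 883 in replicate 1 gave a log2 ratio of 0.59 (95% interval 0.47 to 0.72), or 1.51-fold, with an adjusted p of 7.9e-21 in the exact binomial test. With edgeR's exact test at a dispersion of 0.01 the adjusted p was 0.063, so at that assumed spread between cultures the difference was not past the threshold, and over 8 alternatives the adjusted p ran from 3.7e-23 to 1. Trem2 had a log2 ratio of 0.16 (0.08 to 0.24), with an adjusted p of 0.00054 in the exact binomial test, and 0.11 where library totals replaced TMM (5.6e-12 to 1 over 8 alternatives). Treml2 had a log2 ratio of 0.04 (-0.11 to 0.18) and an adjusted p of 0.75 by the exact binomial test, and with library totals the ratio was -0.04. The intervals of Hcst (0.67, from -0.51 to 1.99) and Treml4 (0.38, from -1.45 to 2.42) were wide, and both include 0.

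**Figure D4:**
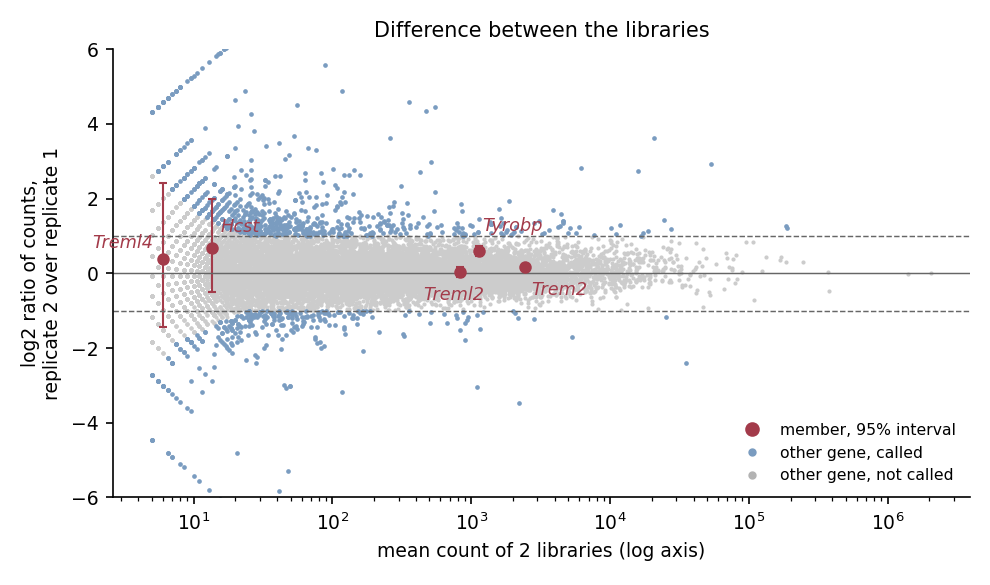
Log2 ratio of counts, replicate 2 over replicate 1, against mean count (log axis) for all genes tested; members are in red with 95% intervals for counting error, called genes in blue and dashed lines mark a 2-fold ratio. Tyrobp, Trem2 and Treml2 lie within the dashed lines, the intervals of Hcst and Treml4 cross them, and 26 genes beyond a ratio of 6 are off the axis.

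Tyrobp RNA exceeded the RNA of the 5 receptors together in replicate 2 and was about level with it in replicate 1. Tyrobp equalled 1.31 times the summed TPM of the 5 receptors in replicate 2 and 1.01 times in replicate 1. In replicate 1 the authors' interval for Tyrobp, 65.5 to 74.8 TPM, includes the receptor sum of 71.7 TPM, so no order can be read there. Fcer1g, the ITAM chain of Fc receptors, was higher than Tyrobp, with 298.27 TPM in replicate 2 and 303.44 TPM in replicate 1, or 2.89 and 4.2 times Tyrobp. It was the only one of 7 other ITAM chains above the median of protein-coding genes. The chains of the T cell receptor and B cell receptor complexes, led by Cd247 (0.28 TPM), Cd79b (0.245 TPM) and Cd3d (0.01 TPM), were at or near 0 in the gene-level table, and the list's median was 0.01 TPM. Cd3d depended on the table: it had 0 gene-level counts in replicate 2 and 1 in replicate 1, but 125 and 332 index-based counts, or 0.616 and 2.88 TPM.

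Other receptors that pair with Tyrobp or Hcst in mouse were expressed at low levels. Of 13, 3 lay above the median of protein-coding genes and 0 above the 90th percentile, and their median was 0.615 TPM. The highest were Cd200r4, an activating member of the CD200 receptor family (15.5 TPM in replicate 2 and 10.03 in replicate 1), Clec5a, a C-type lectin (7.37 and 13.78 TPM), Pilrb1, a paired immunoglobulin-like receptor (10.23 and 7.46 TPM), and Cd300lb (3.36 and 3.57 TPM). Each was below Trem2 in both libraries. Of 10 tested, 1 was called, beside 6.65% of all genes tested. This was Sirpb1c, with 1.48 TPM in replicate 2 and 0.67 TPM in replicate 1. It had a log2 ratio of 1.38 (0.77 to 2.06) and an adjusted p of 1.7e-05 by the exact binomial test. Sirpb1a, Sirpb1b and Sirpb1c are close copies whose reads may have been divided among them, so this value is uncertain. The difference also depended on the table. Sirpb1c had 80.17 gene-level counts in replicate 2 and 29.31 in replicate 1, but 72.4 and 55.2 index-based counts. In index-based TPM replicate 2 was the lower, at 0.397 against 0.462. Klrk1, the receptor NKG2D that signals through Hcst, was looked up after values were seen and had 0.82 TPM in replicate 2 and 0.41 TPM in replicate 1.

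Downstream of the ITAM the pathway was well represented. Of 27 kinases and signalling proteins, 22 lay above the median of protein-coding genes and 11 above the 90th percentile, with a median of 18.8 TPM, against 50.0% of all protein-coding genes above their median by definition. Syk, the kinase that binds the phosphorylated ITAM, had 199.12 TPM in replicate 2 and 174.5 TPM in replicate 1. Malt1, the paracaspase of the Card9 and Bcl10 complex, had 337.68 TPM in replicate 2 and 481.0 in replicate 1 and was the highest of the list. Prkcd, protein kinase C delta, averaged 112 ± 31.2 TPM, and Lat2, a membrane scaffold, averaged 80.3 ± 13.4 TPM (SD, n = 2). None of 26 tested was called between the libraries by the exact binomial test with the 2-fold rule, beside 6.65% of all genes tested.

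Inhibitors of ITAM signalling were also found at high levels. Of 13, 12 lay above the median of protein-coding genes and 6 above the 90th percentile, with a median of 21.9 TPM. Between the libraries 0 of 12 tested were called, beside 6.65% of all genes tested. Lilrb4a, an inhibitory immunoglobulin-like receptor, had 1190.22 TPM in replicate 2 and 1128.57 TPM in replicate 1. Sirpa, the receptor for CD47, averaged 807 ± 82.3 TPM, Pirb, a paired inhibitory receptor with close copies, averaged 204 ± 36.9 TPM, and Cbl, a ubiquitin ligase of receptor complexes, averaged 40.3 ± 2.47 TPM (SD, n = 2). The first 3 each exceeded every TREM receptor and Tyrobp in both libraries.

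**Figure D5:**
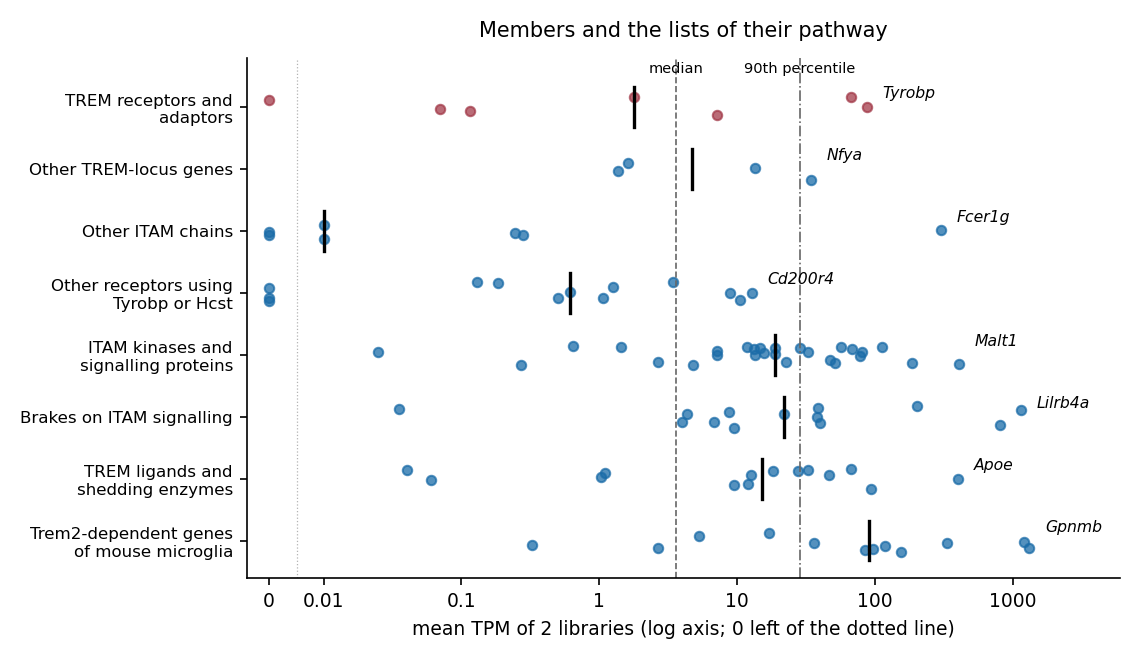
Mean TPM of 2 libraries (log axis) of the 7 members and of each gene in 7 lists of their pathway, with the list's median as a bar and its highest gene named; broken lines mark the median (3.59 TPM) and the 90th percentile (28.7 TPM) of protein-coding genes. Kinases, inhibitors, ligands and shedding enzymes, and Trem2-dependent genes have medians above the protein-coding median, and other ITAM chains and other receptors have medians below it.

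Genes around the receptor's extracellular part were mixed. Of 14 ligands, partners and shedding enzymes, 10 lay above the median of protein-coding genes and 5 above the 90th percentile, with a median of 15.2 TPM. Apoe, an apolipoprotein that binds Trem2, was the highest, with 574.49 TPM in replicate 2 and 234.82 TPM in replicate 1. It was the only 1 of 12 tested that was called, beside 6.65% of all genes tested. Its log2 ratio of 1.29 (1.25 to 1.33) in counts is a larger difference than that of any member. Plxna1, a plexin that forms a complex with Trem2 and Tyrobp, averaged 93.7 ± 5.95 TPM. Adam17, a protease that releases the Trem2 ectodomain, averaged 66.7 ± 3.73 TPM, and Ncstn, a subunit of gamma-secretase, which cleaves the remaining stub, averaged 46.9 ± 1.45 TPM (SD, n = 2). Pglyrp1, a ligand of Trem1, was looked up after values were seen and had 1 gene-level count in each library. Its index-based counts were 19.8 in replicate 2 and 20.3 in replicate 1.

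Most genes known to depend on Trem2 in mouse microglia were abundant in the RNA of these nuclei. Of 12, 10 lay above the median of protein-coding genes and 8 above the 90th percentile, with a median of 91.0 TPM. Itgax, with a mean of 0.325 TPM, and Cd9, with 2.67 TPM, lay below the protein-coding median. Of the 10 macrophage markers, 9 also exceeded the 90th percentile, so such levels are not particular to this list. Between the libraries 0 of 12 tested were called, beside 6.65% of all genes tested. Gpnmb, a transmembrane glycoprotein, averaged 1325 ± 254 TPM, Ctsb, the protease cathepsin B, 1217 ± 267 TPM, Spp1, osteopontin, 334 ± 59.0 TPM, and Lgals3, galectin-3, 154 ± 26.2 TPM (SD, n = 2). The samples hold no Trem2-deficient cells, so dependence on Trem2 was not tested. Microglia markers were low, with P2ry12 at 1.44 TPM and Sall1 at 0.

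The protein-coding genes whose levels came nearest to a member were found by distance in log2(TPM + 0.1) over 12128 genes. With 2 libraries this likeness rests on 2 values. Nearest to Tyrobp were Vasp, an actin regulator, with 103.25 TPM in replicate 2 and 71.08 in replicate 1 (distance 0.023), and Ddhd1, a phospholipase, with 100.93 and 73.68 (0.044). Nearest to Trem2 were Trim25, a ubiquitin ligase, with 71.49 and 64.76 TPM (0.013), and Nrros, with 69.34 and 64.46 TPM (0.031). Nearest to Hcst were Plxdc1, with 2.18 and 1.39 TPM (0.027), and Cd244a, with 2.16 and 1.39 TPM (0.037). Beyond Hcst on chromosome 7, with 1877 bases between them, Nfkbid, an IkB-like nuclear protein, had 34.91 TPM in replicate 2 and 44.36 TPM in replicate 1, far above Hcst.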

How the data were processed

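Per the deposited readme files, values are per library, on mm10 with GENCODE M21. Gene-level and alignment-based transcript tables came from transcriptome alignments; the index-based table came from reads and a transcript index. Aligner, quantifier, versions and strandedness are not given in the sources available here. The authors deposited expected counts (estimated, not whole), TPM (per effective length, scaled within a table), FPKM and, in the transcript table, the percent of a gene's abundance per isoform, which was recomputed here. The bounds of the authors' deposited TPM intervals are treated as a score.

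Rows naming no gene (26345) were left out; they held 0.081% and 0.144% of counts in replicates 2 and 1. Expected counts were rounded. TMM scaling used edgeR 4.0.16 and R 4.3.3, and a gene was tested by a two-sided exact binomial test at 10 or more counts over both libraries, after adding 0.5 counts in ratios. With 1 library on each side, no count model across replicates was fitted. The labels name no separate cultures, so the spread may be technical. The test was also run on counts simulated for replicate 2 over replicate 1 (16140 genes) with counting error only. It called 98% of genes given a log2 change of 1.5, 100% of those given 2.5 and 0.0125% of unchanged genes. The changed genes were drawn from those with 100 or more counts over both libraries. The rates of 98% and 100% therefore do not cover genes with fewer counts. None of the rates covers spread between libraries beyond counting error. List medians were taken on log2(TPM + 0.1). Sequences, codon windows and motifs were read from GENCODE M21 transcripts and RefSeq promoter windows.

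Members and lists were chosen with earlier results of these data known. Named were all members and their counted transcripts, the 4 highest genes and any called gene of each list, the 2 protein-coding genes nearest in level to Tyrobp, Hcst and Trem2, and neighbours. Alternatives covered tables, units, scaling (DESeq2 1.42.0 size factors), filters and leaving out a library.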

Additional observations from a re-analysis of the deposited data

How the results depend on the processing

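No paired analysis was possible because the study has 1 group. Of 160 recomputed values, 120 kept their direction, call or level, 39 moved and 1 reversed, and the cause was not tested. A level or share was counted as kept when it lay within the SD of the main value. With 2 libraries, leaving out either always meets this for member levels and transcript shares. Those values therefore tell nothing about stability, and the count of 120 includes them. In the index-based table, mean TPM was 35.0 for Tyrobp, 25.9 for Trem2, 3.42 for Treml2, 0.0518 for Treml4, 0.0419 for Trem1 and 0.00721 for Trem3, and list medians were 2.19 (TREM-locus genes), 0.107 (other ITAM chains), 8.51 (kinases), 12.1 (brakes), 7.28 (ligands and shedding) and 41.9 TPM (Trem2-dependent genes). In FPKM, which is on another scale, means were 135.0 (Tyrobp), 105.0 (Trem2), 11.2 (Treml2), 2.75 (Hcst), 0.18 (Treml4) and 0.11 (Trem1). All 7 members kept their place in the order in the index-based table, in FPKM and without either replicate.

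In the index-based table Trem2-201 held 68.3% of Trem2, Treml2-201 63.6% of Treml2 and Tyrobp-202 84.6% of Tyrobp, and noncoding transcripts held 13.1% of Trem2, 19.7% of Treml2 and 1.68% of Tyrobp. As shares of counts, Trem2-201 held 60.5%, Treml2-201 90.8%, and noncoding transcripts 23.7% of Trem2 and 0.361% of Treml2. With members of 10 or more counts alone, list medians were 0.28 (other ITAM chains), 1.16 (other receptors), 28.7 (brakes) and 22.5 TPM (ligands and shedding). Leaving out a replicate gave 4.55 to 5.83 TPM for TREM-locus genes, 0.02 for other ITAM chains and 15.3 to 15.6 for ligands and shedding.

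The log2 ratio of Treml2 was -0.04 with library totals. Genes called between the libraries numbered 1073 of 16140 tested, against 180 of 8641 at 100 or more counts in both libraries. From index-based counts 2312 of 24957 were called, and with edgeR's exact test at a dispersion of 0.04, 196 of 16140. Under each of these settings 0 members were called. Depth limits Hcst, Treml4, Trem1 and Trem3.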
